A study of Mus musculus with 3 samples.

Results

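Strong-contact bins are the 10 kb stretches of the mouse autosomes in which 2 DamID profiles of the nuclear periphery were both at their highest. Each autosome was divided into 10 kb bins, a fragment was placed by its middle, and the mean of the deposited log2 values was taken in every bin with at least 10 fragments. A bin was a member when its mean was at least 2 both in the Dam-Lamin A-labelled profile and in the Dam-Lap2b-labelled one. This held for 5933 of 239158 bins (2.48%). Members were thus selected on the measured log2 values of both profiles, which are given below as a description with no test.

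All groups were mouse embryonic fibroblasts of the C57BL/6 strain with the wild type genotype, cultured alike. They differed only in the construct that a retrovirus brought in: Dam-Lamin A, Dam-Lap2b or Dam Only, with 1 sample each. The promoter of the construct is not given in the sources used here, and no statement was found on whether a sample came from 1 culture or from pooled animals. No gene marker of fibroblasts was checked, since DamID reads DNA contact and genes were not placed on these coordinates. With 1 sample a group there was no replicate check, and no p-value was computed.

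DamID records where a protein has been near DNA. The bacterial enzyme Dam, fused to the protein, methylates adenine in the sequence GATC, and fragments with a methylated GATC at either end are the ones read out. Lamin A builds filaments in the meshwork under the inner nuclear membrane, and Lap2b is a membrane protein anchored there that binds lamins. The long stretches of the genome that both touch are called lamina-associated domains (LADs) and are known to be mostly poor in active genes. In a cell population a high ratio can come from contact in more cells or from more methylation in each, and these cannot be told apart here.

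Each profile held 6415372 fragments with a median length of 258 bp, of which 5972890 lay on autosomes. Whole reads recovered from the log2 values summed to 139435550 for the Dam-Lamin A fusion, 151511590 for the Dam-Lap2b fusion and 153450178 for a reference common to both, taken to be the Dam-only library. These totals are lower bounds. A shared reference ties the profiles together, because a bin with few reference reads is raised in both. Profiles and LAD lists did not pair by label. Bins found only in the Dam-Lamin A list (14760) averaged −0.03 in the Dam-Lamin A profile and 0.45 in the Dam-Lap2b profile. Bins found only in the Dam-Lap2b list (6229) averaged 0.38 and 0.03 in the same order. Distances and shares are therefore given for both lists, and each profile and list is named by its label.

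Within the strong-contact bins the Dam-Lamin A profile averaged 2.46 ± 0.34 (SD over 5933 bins, range 2.0 to 3.99) and the Dam-Lap2b profile 2.23 ± 0.19 (range 2.0 to 3.28). The other 106042 bins in both LAD lists averaged 1.27 ± 0.65 and 1.30 ± 0.52. Strong-contact bins thus stood about 1 log2 unit above the remaining lamina-associated sequence, a distance that the rule itself sets in part. A mean of at least 2 was reached by 18347 bins in the Dam-Lamin A profile alone or with the other (7.67%) and by 11514 bins in the Dam-Lap2b profile (4.81%). Members made up 32.3% of the former and 51.5% of the latter.

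**Figure D1:**
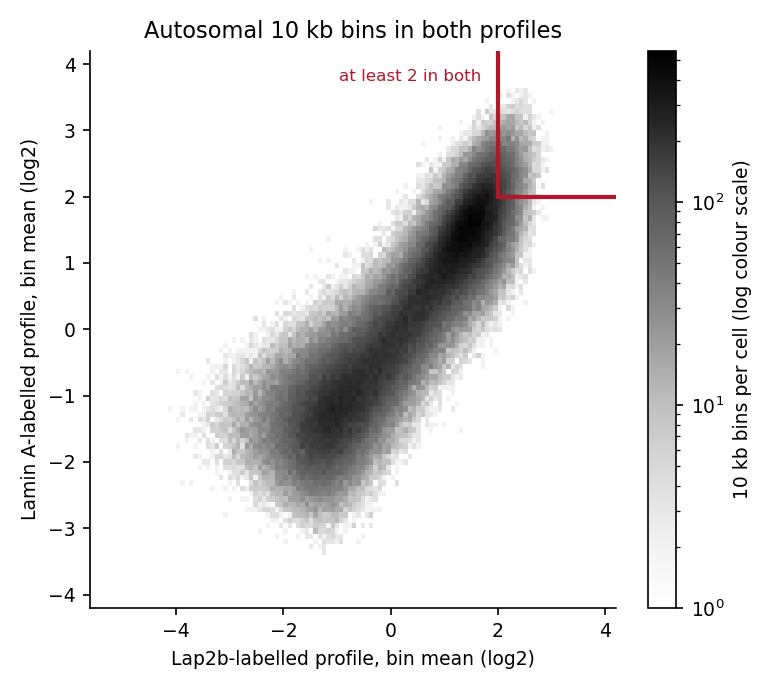
Two-dimensional histogram of the autosomal 10 kb bins, with the mean of the profile labelled Dam-Lap2b on the x axis and of the profile labelled Dam-Lamin A on the y axis (both log2), and the number of bins as a grey scale on a log scale. The red corner marks the 5933 bins at 2 or above in both, which form the tip of the dense cloud of lamina-associated bins.

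The tip had no gap behind it. In 2251 bins the lower of both means lay from 2.0 to below 2.1, which was 37.9% of the members, while 3149 bins lay from 1.9 to below 2.0. Just inside the rule, the bin chr8:19020001-19030000 had 2.00003 in the Dam-Lamin A profile and 2.19 in the Dam-Lap2b profile. Just outside, chr1:125100001-125110000 had 1.99994 and 2.08. The members are therefore the upper end of a continuum.

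How precisely a bin was placed depended on its fragments. Members held a median of 25 fragments, as did the other bins in both lists, and 90% of members held 17 to 37. The SD among the fragments of a member had a median of 1.23 in the Dam-Lamin A profile and 0.95 in the Dam-Lap2b profile, which gave a median standard error of 0.25 and 0.19 for a bin mean. The standard errors here and below treat the fragments of a bin as independent, although they are neighbours in the same library. They do not cover variation between samples. Both means were more than 2 standard errors above 2 in 595 members (10.03%). Most single bins could thus fall on either side of the threshold, whereas most of their fragments were raised, with a median of 97.5% of a member's fragments above 0 in both profiles against 84.2% in the other bins in both lists.

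In fragments that had no part in the choice the level was lower but still near 2. When odd-numbered fragments alone picked 6690 bins at 2 or above in both profiles, those fragments averaged 2.47 in the Dam-Lamin A profile and 2.26 in the Dam-Lap2b profile. The even-numbered fragments of the same bins averaged 2.29 ± 0.49 (SD over bins) and 2.09 ± 0.33. Of these bins, 49.7% reached 2 in both by the even-numbered fragments too, against 2.85% of all bins. In the reverse direction 6806 bins were picked, with 2.48 and 2.26 in the fragments that picked them, 2.27 ± 0.48 and 2.08 ± 0.32 in the fragments left aside and 48.8% at 2 or above, against 2.80% of all bins. Both sets of fragments alternate along the same bins and come from the same libraries, so they are not independent of each other. This describes the reading of a bin and not a biological replicate.

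The high ratios came with more fusion reads and with fewer reference reads. A strong-contact bin held a median of 880 reads from the Dam-Lamin A fusion (5th to 95th percentile, 455 to 1821), 870 from the Dam-Lap2b fusion (505.6 to 1472) and 166 from the reference (83.6 to 311). The other bins in both lists held medians of 588, 675 and 238. Members therefore had 1.497 times the Dam-Lamin A reads, 1.29 times the Dam-Lap2b reads and 0.697 times the reference reads of ordinary LAD bins.

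Measured against the median of all bins, both fusions were higher and the reference lower. The ratio of medians was 1.89 for the Dam-Lamin A fusion, 1.55 for the Dam-Lap2b fusion and 0.420 for the reference. In 3324 members (56.03%) both fusions lay above and the reference below the median of the other bins in both lists, a combination seen in 8.59% of those other bins. In 698 members both fusions lay below that median. Members were picked for high ratios of these same reads, so the contrasts in read numbers, here and above, follow in part from the rule. The part of the reference in the choice of members beyond these values was not tested.

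Members differed in which profile was higher. The Dam-Lamin A profile was the higher in 4346 members (73.3%), against 49.0% of the other bins in both lists, and it exceeded the other by a mean of 0.22 ± 0.35 (SD, range −1.16 to 1.79). The excess was at least 1 in 132 members, and in 1 member the Dam-Lap2b profile was higher by at least 1. The common threshold sets this balance in part. The Dam-Lamin A profile had more bins of at least 2 (18347 against 11514). Its SD over the other bins in both lists was also wider (0.65 against 0.52). Across members the profiles correlated with a Pearson's r of 0.205, against 0.610 across the other bins in both lists and 0.882 across all bins. A cut at a common threshold narrows the range of both measures and shares a reference, so the r among members is only a description over bins of the same 2 libraries.

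Fragment length moved with this difference. In members, fragments under 100 bp averaged 2.43 ± 1.32 (SD over 35681 fragments) in the Dam-Lamin A profile and 1.96 ± 1.09 in the Dam-Lap2b profile. Fragments of 1000 bp or more averaged 1.48 ± 1.08 and 2.47 ± 0.76 (12090 fragments). The Dam-Lamin A profile was thus lower on long fragments and the Dam-Lap2b profile higher. The other bins in both lists had the same order, with 1.37 and 1.08 under 100 bp and 0.58 and 1.65 from 1000 bp. The mix of lengths was alike, since fragments of 1000 bp or more were 7.98% of the fragments of members and 8.36% of those of the other bins. With a mean weighted by length the rule found 6082 bins, of which 3463 were among the members.

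Strong-contact bins lay close together, and nearly as many touched another as stood alone. Joined where they touched, they formed 4195 runs, of which 3189 were a single bin, 621 held 2 bins and 222 held 3. Bins in runs of 2 or more were 46.2% of the members (95% interval 44.97 to 47.5%, exact Clopper-Pearson, which treats bins as independent although neighbours are not). The nearest other member lay at a median of 20 kb, 80.4% of members had one within 50 kb and 89.7% within 100 kb. When runs could skip up to 5 bins there were 1875, and 102 of these held 10 or more members.

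Single bins stood on high ground. The bins next to a member averaged 2.09 ± 0.54 (SD over 11847 neighbours) in the Dam-Lamin A profile and 1.9 ± 0.37 in the Dam-Lap2b profile, and 29.3% of them were members. Next to runs of a single bin, where no neighbour is a member by definition, the means were still 1.85 ± 0.47 and 1.73 ± 0.31, and 94.7% of the neighbours were at least 1 in both profiles. Next to the other bins in both lists the means were 1.27 ± 0.70 and 1.31 ± 0.56, and 3.92% of the neighbours were members. The level faded slowly, with 1.92 and 1.77 at 100 kb from a member and 1.33 and 1.27 at 500 kb.

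**Figure D2:**
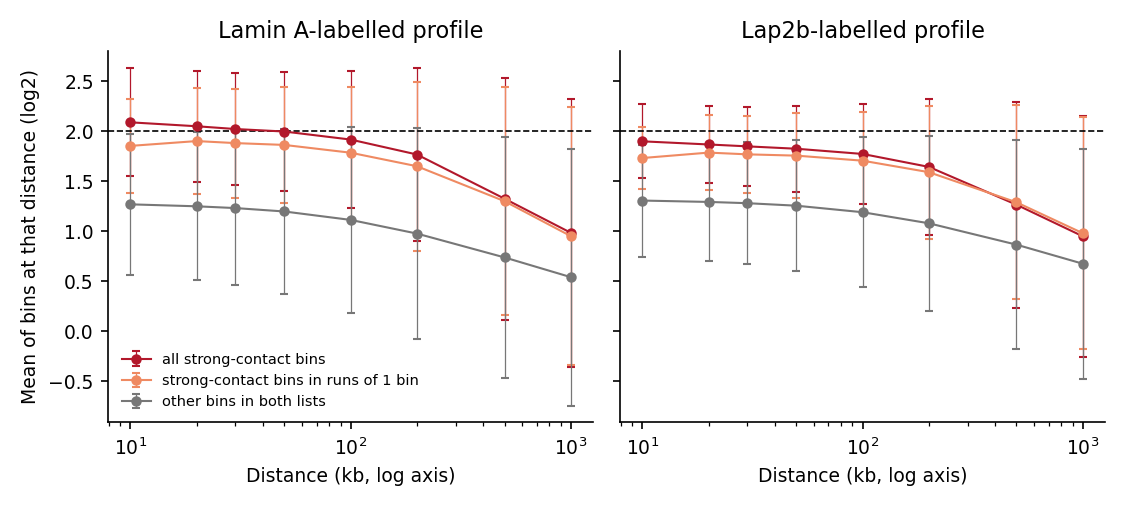
Mean log2 value of the bins at a given distance (x axis, kb, log scale) from all strong-contact bins, from those in runs of 1 bin and from the other bins in both LAD lists, in each profile. Bars are SDs over neighbouring bins, and the dashed line is the threshold of 2. Around strong-contact bins the means stay near 2 up to 50 kb and approach 1 at 1000 kb.

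At the scale of 1 Mb, a small part of the genome held most members. Of 2417 windows of 1 Mb, 779 (32.2%) had a member, and 75 windows with at least 20 members held 39.1% of them. The 113 fullest windows (4.68%) held 50% of the members. The fullest held 61. Of 1147 windows in which at least 50 bins lay in both lists, 470 had no member, so that much lamina-associated sequence never reached the threshold in both profiles. The 3 largest groups with skips of up to 5 bins, named here after their values were seen, were chr6:138150001-139470000 and chr10:128590001-129940000 with 89 members each and chr6:131550001-132910000 with 79.

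The 10 longest unbroken runs lay on 4 chromosomes, 4 on chromosome 4 and 2 each on chromosomes 5, 6 and 10. They were 80 to 190 kb long. Of these, 9 lay in the last 10% of their chromosome, counted from the first to the last fragment, and 1 in the 10% before it. Their means ran from 2.55 to 3.35 in the Dam-Lamin A profile and from 2.19 to 2.55 in the Dam-Lap2b profile, and all their bins were in both lists.

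The longest run was chr5:146660001-146850000, with 19 bins. It averaged 3.05 ± 0.29 (SD over 19 bins, range 2.54 to 3.56) in the Dam-Lamin A profile and 2.19 ± 0.17 (2.0 to 2.59) in the Dam-Lap2b profile, from 580 fragments. The bin before it had 2.89 and 1.80 and the bin after it 2.12 and 1.76, so that it ended on both sides where the Dam-Lap2b profile fell under 2. The second, chr5:146310001-146420000 with 11 bins, had the highest Dam-Lamin A mean of the 10, 3.35 ± 0.46, and 2.29 ± 0.17 in the Dam-Lap2b profile. The middle of its last bin lay 7.98 kb from the edge of a LAD in both lists. The edge lay at the start of a stretch of 50.5 kb without fragments, between 146422927 and 146473403.

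**Figure D3:**
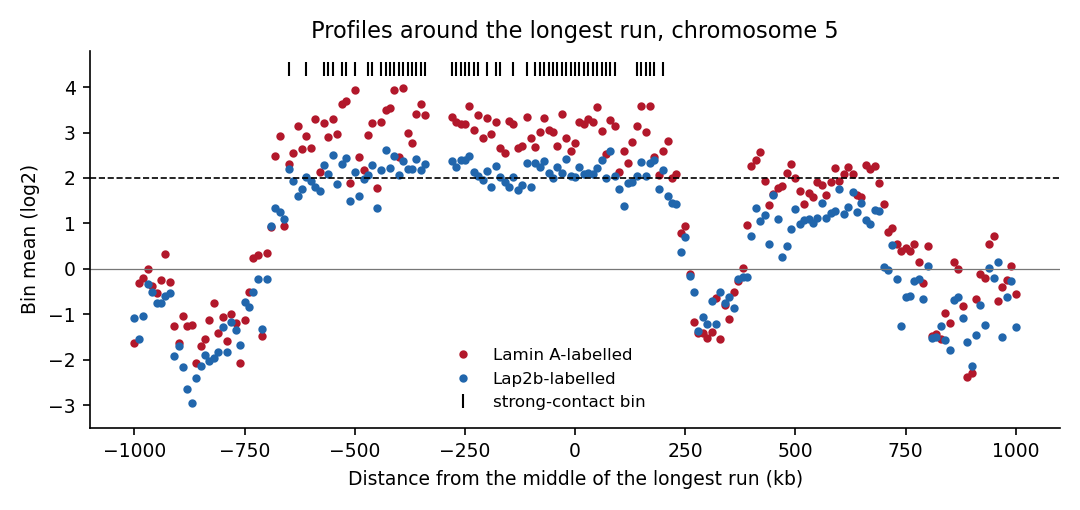
Bin means (log2) of the profiles labelled Dam-Lamin A (red) and Dam-Lap2b (blue) within 1000 kb of the middle of the longest run on chromosome 5, with strong-contact bins ticked at the top and the threshold of 2 dashed. Strong-contact bins fill most of a plateau with steep sides, the Dam-Lamin A profile is the higher on the plateau, and the empty stretch left of the middle holds no fragments.

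The 4 runs on chromosome 4 lay within 2 Mb of each other. The run chr4:145180001-145280000 averaged 2.76 ± 0.31 and 2.38 ± 0.25 over 10 bins, and chr4:145080001-145160000 averaged 2.78 ± 0.13 and 2.33 ± 0.29 over 8. The run chr4:146650001-146740000 averaged 2.72 ± 0.37 and 2.37 ± 0.17 over 9, and chr4:146880001-146960000 averaged 2.71 ± 0.28 and 2.55 ± 0.33 over 8, the highest Dam-Lap2b mean of the 10 runs. Between these runs the Dam-Lamin A profile differed by less than its spread among the bins of 1 run.

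On chromosome 10 both runs were near the distal end. The run chr10:129150001-129240000 averaged 2.72 ± 0.43 and 2.36 ± 0.20, and the middle of its last bin lay 0.758 Mb before the last fragment. The run chr10:129820001-129910000 averaged 2.67 ± 0.26 and 2.22 ± 0.16, and the middle of its last bin lay 0.0880 Mb before the last fragment. On chromosome 6, chr6:131900001-131990000 averaged 2.69 ± 0.42 and 2.37 ± 0.33, and chr6:138780001-138860000 averaged 2.55 ± 0.34 and 2.30 ± 0.18.

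Read numbers differed among the longest runs. The median reference reads per bin were 258 and 366 in the 2 runs on chromosome 5, 258 to 396 in those on chromosome 4, and 143 and 138 in those on chromosome 6, against 166 over all members. The Dam-Lamin A fusion reached 3864 reads per bin in the second run on chromosome 5, against 880 over all members. The second run on chromosome 10 had 234 reference reads per bin and 1652 and 1304 reads of the fusions, while the first had 166 reference reads. In the runs on chromosomes 4 and 5 and in the more distal run on chromosome 10, all 3 libraries were thus above the median of members. The part of read depth in these runs was not tested.

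The strongest bins were ranked by the lower of both means, and the first was chr2:149130001-149140000. It had 3.50 in the Dam-Lamin A profile and 3.28 in the Dam-Lap2b profile, with standard errors over 23 fragments of 0.28 and 0.23, from 1077, 1194 and 144 reads of the 2 fusions and the reference. The second, chr10:129640001-129650000, had 3.18 and 3.13 (1204, 1092 and 113 reads). The third, chr2:171160001-171170000, had 3.43 and 3.07 (1446, 1126 and 132 reads). These differed from each other by less than about 2 standard errors. The next were chr6:131980001-131990000 with 3.31 and 3.02 and chr4:143400001-143410000 with 3.81 and 2.99. The 5 bins lay 327 to 813 kb from the nearest edge of either list, and none had a low read number in the fusions. Their reference reads, 113 to 144, were all below the median of 166 over all members. The part of the reference in their rank was not tested.

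Chromosomes differed widely in their share of strong-contact bins. Chromosome 2 had the highest, with 948 of 17819 bins (5.32%), followed by chromosome 17 with 393 of 9182 (4.28%) and chromosome 6 with 538 of 14622 (3.68%), against 2.48% over all autosomes. The lowest were chromosome 19 with 25 of 5806 (0.431%), chromosome 11 with 105 of 11864 (0.885%) and chromosome 15 with 117 of 10037 (1.17%). The highest share was 12.4 times the lowest. Chromosome 2 alone held 15.98% of the members.

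The amount of lamina-associated sequence did not give the same order. On chromosome 2, 43.4% of bins lay in both lists, near the 45.3% of chromosome 17 and below the 56.8% of chromosome 14, which had a member share of 3.65%. Counted within the bins in both lists, members were 12.2% on chromosome 2, 9.44% on chromosome 17, 2.58% on chromosome 11 and 1.12% on chromosome 19, against 5.26% over all autosomes. Across the 19 autosomes the member share and the share of bins in both lists correlated with r = 0.288 (Pearson) and rho = 0.216 (Spearman), given as a description over parts of the same libraries. The mean level of members by chromosome, which the threshold bounds from below, ran from 2.31 to 2.65 in the Dam-Lamin A profile and from 2.15 to 2.28 in the Dam-Lap2b profile.

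Strong-contact bins became more frequent with distance from the centromere. Mouse autosomes have their centromere at the start of the sequence, and the fragments begin about 3 Mb in. Each chromosome was cut into 10 segments of equal length, numbered from the centromere. In segment 1, 96 of 23992 bins were members (0.400%), and the percentage was higher in each segment than in the one before, up to 1526 of 23955 (6.37%) in segment 10, 15.9 times that of segment 1. The ratio was 5.26 with the threshold lowered by 0.25 and 80.1 with it raised by 0.25. The latter rests on very few bins, since only 0.0292% of segment 1 passed the raised threshold, against 2.34% of segment 10. The 5 segments near the centromere held 1088 members and the 5 distal ones 4845 (81.7%). The share was higher on the distal side on 19 of 19 autosomes. It was 7.95% against 2.69% on chromosome 2 and 0.995% against 0.775% on chromosome 11.

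The amount of LAD sequence showed no such rise. The share of bins in both lists lay between 43.4% and 50.2% in segments 1 to 9, with 49.03% in segment 1, and was 40.9% in segment 10. Among bins in both lists, members rose from 0.816% to 15.2%, and among bins in both lists at least 200 kb from an edge of either, from 1.29% to 25.6%. The increase towards the distal end was thus also present among bins deep in the listed domains.

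**Figure D4:**
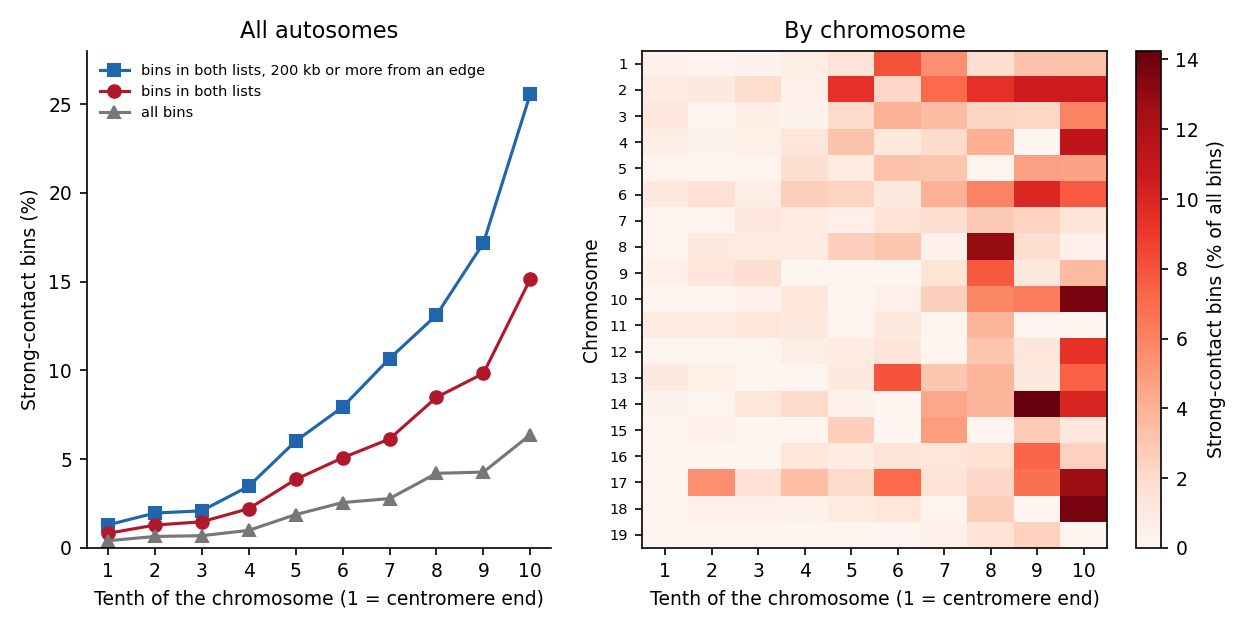
Left, percentage of strong-contact bins by segment of the chromosome (10% of its length each), over all bins, over bins in both LAD lists and over bins in both lists at least 200 kb from an edge. Right, the percentage over all bins for each autosome (rows) and segment (columns). The left curves rise from 0.400, 0.816 and 1.29% to 6.37, 15.2 and 25.6%, and the dark cells on the right lie mostly in the distal segments.

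Single chromosomes followed the rise unevenly. On chromosome 2 the share was 0.785% in segment 1 and 10.6% in segment 10, with 9.36% already in segment 5 and 2.13% in segment 6. Chromosome 17 had no member in segment 1, 5.48% in segment 2, 7.07% in segment 6 and 12.6% in segment 10. On chromosome 6 the share was highest in segment 9, at 9.90%. Of the chromosomes poor in members, chromosome 11 had its highest share, 3.80%, in segment 8 and no member in segment 10, and the members of chromosome 19 lay in segments 7 to 9. The distal rise was thus a trend over all autosomes, made up of separate rich stretches.

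Both profiles took part, the Dam-Lamin A profile more than the other. Bins of at least 2 rose from 2.03% to 17.2% between segments 1 and 10 in the Dam-Lamin A profile and from 2.06% to 7.77% in the Dam-Lap2b profile. In bins in both lists the mean of the former rose from 1.11 ± 0.58 to 1.71 ± 0.81, while that of the latter was 1.28 ± 0.47 and 1.36 ± 0.68. The change in the Dam-Lap2b profile lay mainly in its spread. Among the members the Dam-Lamin A profile averaged 2.22 ± 0.19 in segment 1 and 2.64 ± 0.38 in segment 10, and the Dam-Lap2b profile 2.16 ± 0.14 and 2.26 ± 0.21.

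Reads changed along the chromosomes as well. In bins in both lists the median number of Dam-Lamin A reads rose from 519 in segment 1 to 887 in segment 10, that of Dam-Lap2b reads from 661 to 774 and that of reference reads from 233 to 268. In the members the median went from 160.5 to 179 for the reference, from 712.5 to 1084.5 for the Dam-Lamin A fusion and from 801.5 to 959.5 for the Dam-Lap2b fusion. The fragments per bin in both lists had medians of 26 and 24. The part of these read numbers in the gradient was not tested.

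The ends themselves showed the contrast at close range. In the first 3 Mb of fragments 3 bins were members and in the last 3 Mb 364, together 6.19% of the members against 4.75% of all bins. In the first 1 Mb none of 1879 bins was a member, and in the last 1 Mb 151 of 1895 (7.97%), on 12 chromosomes. Of the bins in both lists within 1 Mb of the distal end, 20.6% were members. From 20 to 30 Mb the shares were still 0.270% from the centromere end and 3.52% from the distal end, so that the difference was not limited to the last bins of the chromosomes.

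Nearly all members lay inside LADs. In both lists were 5889 members (99.3%, 95% interval 99.01 to 99.5%), which was 5.26% of the bins in both lists. The interval treats bins as independent, although neighbours are not, and does not cover variation between samples. The list labelled Dam-Lamin A alone held 2 members (0.0136% of its bins), the list labelled Dam-Lap2b alone 13 (0.209%), and neither list held 29 (0.0273%). The lists and the rule may rest on the same profiles, so this placement is not independent of the rule.

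Members lay deep in the domains. Inside the list labelled Dam-Lamin A, a member was a median of 467 kb from the nearest edge (5th to 95th percentile, 91.9 to 1984 kb), against 264 kb for the other bins in both lists and 220 kb for all other bins in that list. Inside the list labelled Dam-Lap2b the medians were 405, 192 and 177 kb in the same order. Bins less than 50 kb from an edge were 1.80% of the members and 16.5% of the other bins in the former list, and 2.69% and 19.4% in the latter. The outermost stretch of a domain was thus largely free of strong-contact bins. Bins within 10 kb of an edge averaged 0.26 and 0.52 in the Dam-Lamin A and Dam-Lap2b profiles in the former list, and 0.66 and 0.62 in the latter. The edges may have been placed where these same profiles fall. Depth and distance to an edge, here and below, are therefore not independent of the rule.

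The share of members rose with depth and then levelled off. In the list labelled Dam-Lamin A it was 0.175% within 10 kb of an edge, 1.40% at 50 to 100 kb, 3.24% at 100 to 200 kb, 6.23% at 200 to 400 kb and 8.00% at 400 to 800 kb. Farther in it was 6.87% at 800 to 1600 kb and 7.78% beyond. For the Dam-Lap2b list the same classes ran from 0.296% at the edge to 8.95% at 400 to 800 kb, 8.59% at 800 to 1600 kb and 10.04% beyond. Most of the rise lay within 400 kb of an edge.

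**Figure D5:**
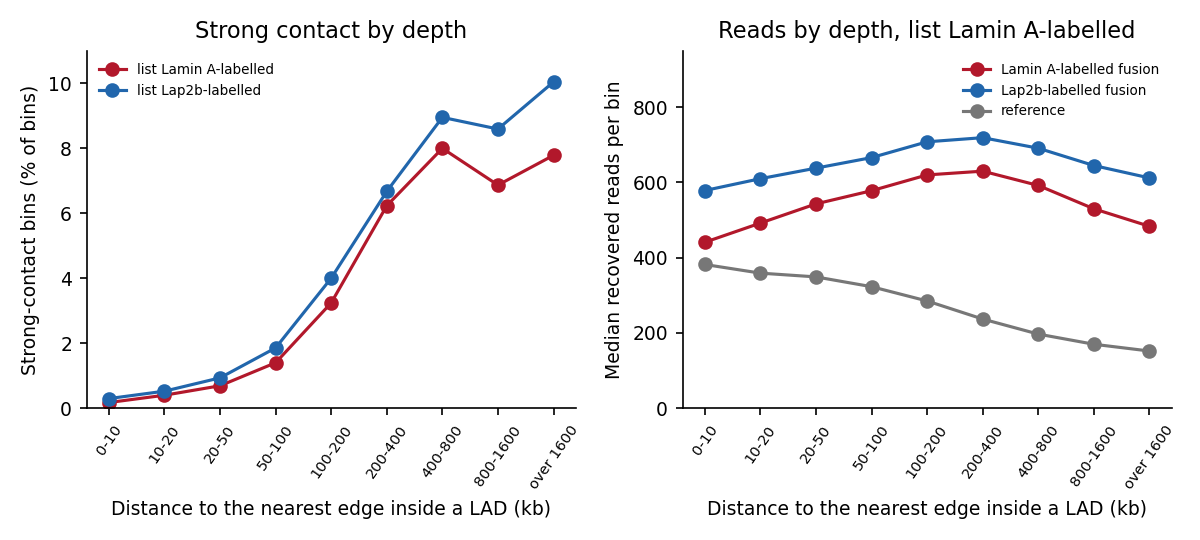
Left, percentage of strong-contact bins among the bins of a LAD by distance to its nearest edge, for each list. Right, median recovered reads per bin of both fusions and the reference by the same distance in the list labelled Dam-Lamin A. The percentage rises from under 1% within 50 kb of an edge to 8.00 and 8.95% at 400 to 800 kb, while reference reads fall with depth throughout.

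Reads of the reference and of the fusions took different courses with depth. In the list labelled Dam-Lamin A the reference fell from a median of 382 reads per bin within 10 kb of an edge to 197 at 400 to 800 kb and 152 beyond 1600 kb. Reads of the Dam-Lamin A fusion rose from 441 to 630 at 200 to 400 kb and were 483.5 beyond 1600 kb, and those of the Dam-Lap2b fusion went from 578.5 to 719 and 612. Beyond 400 kb all 3 libraries thus had fewer reads with depth. The part of the reference in the share of members was not tested.

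Long domains held most members. Domains of at least 1 Mb contained 78.4% of the members inside the list labelled Dam-Lamin A and 53.4% of its other bins, and 74.9% and 45.9% in the list labelled Dam-Lap2b. In the former list, members were 0.258% of bins in domains of 100 to 200 kb, 3.78% in those of 500 to 1000 kb and 7.16% in those of 1 to 2 Mb, with 6.08% and 6.87% in the 2 longer classes. In the latter list these shares were 0.239, 3.96, 7.84, 7.52 and 9.97%. At 100 to 200 kb from an edge the share was 1.497% in domains of 200 to 500 kb, 3.63% in those of 500 to 1000 kb and 5.25% in those of 1 to 2 Mb. In longer domains it was 4.36% (2 to 4 Mb, 2020 bins) and 2.04% (at least 4 Mb, 540 bins, 27 domains in the class). For the Dam-Lap2b list the same classes had 2.35, 4.05, 6.23, 6.81 and 3.52%, the last from 199 bins with 10 domains in the class. In both lists the share thus differed between length classes at like depth, with few bins behind the value of the longest class.

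Within domains of at least 1 Mb, members were less frequent near the edges than farther in. Divided into 5 zones of equal width from edge to centre, the list labelled Dam-Lamin A had members in 3.58, 6.76, 7.60, 7.45 and 8.00% of bins, and the list labelled Dam-Lap2b in 4.62, 7.98, 8.25, 9.29 and 9.37%. In contrast to whole chromosomes, the domains themselves showed no lean to one side, with 50.5% and 50.7% of members on the distal side of the domain's middle.

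A minority of domains contained members. In the list labelled Dam-Lamin A 476 of 2004 autosomal domains had at least 1 (23.8%), and in the list labelled Dam-Lap2b 535 of 2196 (24.4%). Domains with at least 20 members numbered 81 and 85 and held 62.1% and 61.99% of all members. Among domains of at least 1 Mb, 72 of 328 and 56 of 292 had none. Long domains thus differed widely in how many strong-contact bins they held.

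The domain with the most members was the same stretch of chromosome 8 in both lists. In the list labelled Dam-Lamin A it was chr8:98482235-105736092, with 165 members among 726 bins (22.7%) and profile means of 1.86 ± 0.57 and 1.86 ± 0.44. In the list labelled Dam-Lap2b it was chr8:98428266-104972065, again with 165 members. Next in the former list were chr2:84947997-90027115 with 127 members (25%), chr14:106570792-112072166 with 102 (18.7%) and chr12:114504453-117281789 with 96 (34.5%). The fifth, chr6:137718921-139611432, had 95 members among 188 bins (50.5%).

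The domains of the list labelled Dam-Lap2b overlapped these in part. They were chr12:114459939-117282820 with 96 members, chr6:131380633-133819361 with 95 (38.9%), chr14:110418057-115414426 with 91 (18.4%) and chr6:138096416-139611432 with 90 among 150 bins (60.0%). In the last, the bins averaged 2.36 ± 0.58 in the Dam-Lamin A profile and 2.07 ± 0.44 in the Dam-Lap2b profile, so that the mean over the whole domain lay above 2 in both profiles. Members filled at least 50% of the bins in 8 domains of each list.

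The few members outside the lists lay mostly at the distal tips of chromosomes. Of the 29 in neither list, 21 were within 1 Mb of the last fragment, 11 of them on chromosome 14, 6 on chromosome 8, 3 on chromosome 12 and 1 on chromosome 9. The 13 in the list labelled Dam-Lap2b alone were all on chromosome 18, within 0.636 Mb of its last fragment. Of the others, 6 in neither list lay between 117340001 and 117450000 on chromosome 13. Those in neither list had medians of 2.40 (range 2.004 to 3.34) and 2.098 (2.01 to 2.45), within the range of the members inside.

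The farthest from any LAD was chr12:121160001-121170000, 712 kb from the nearest edge of either list and 0.0898 Mb from the last fragment. It had 2.42 and 2.20, from 744, 665 and 168 reads of the fusions and the reference. The next were chr12:121060001-121070000 at 612 kb, with 2.40 and 2.09, and chr8:131700001-131710000 at 548 kb, with 2.26 and 2.098. Their reference reads of 168 to 275 per bin were in the range of other members, as were the 665 to 1167 reads of the fusions. How the listed domains were called near chromosome ends is not given in the sources used here.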

How the data were processed

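The construct in each label gave the group, with 1 sample each. The authors deposited log2 values per fragment and lists of domain positions. Bowtie and the build mm9 are named per the submitters' processing notes, and the normalization and the domain caller are not given in the sources used here. Positions are counted from 1. Each deposited value equalled the log2 ratio of fusion to reference reads, with 1 read added to both, shifted by a fixed amount per profile. The smallest whole numbers with a common denominator of up to 5000 were taken as reads and found for 99.9968% of fragments. Members, lists and alternatives were chosen with earlier results of these data known. Bins, runs and distances were computed with Python 3.11.15 and pandas 2.3.3. On 359298 simulated fragments with 228 planted strong-contact bins, 100% of the planted bins were found with 0 others, and reads were recovered exactly for 83.2% of fragments. The planted bins were set well above the threshold and all others well below it. The simulation thus checks the computation and cannot show how bins near the threshold are called. Regions named are the 10 longest runs (ties by the lower mean), the 5 strongest bins, the 5 domains of each list with the most members, the 3 highest and 3 lowest chromosomes and the 3 members farthest from a LAD. Distances to domain edges and chromosome ends are counted from the middle of a bin, and a chromosome end is its first or last fragment. Alternatives covered the threshold, bins, fragments, averaging and domain edges. No gene was placed, since the annotation used here is of another build, and no sequence is printed.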

Additional observations from a re-analysis of the deposited data

Results flagged for a closer look

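Between the first and the last 10% of the chromosomes the profiles moved in opposite directions in the bins in neither list. Their mean changed by 0.14 in the profile labelled Dam-Lamin A (−0.98 to −0.84) and by −0.36 in the profile labelled Dam-Lap2b (−0.68 to −1.04). Each group had 1 sample, so the difference between the profiles was not tested. Over all bins in both lists both means were higher in the last 10%, by 0.60 and 0.08, and in the strong-contact bins by 0.42 and 0.10.

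Chromosome X was outside the rule. By the same threshold 44 of its 16160 bins were at 2 or above in both profiles (0.272%, 95% interval 0.198 to 0.365%), against 2.48% of autosomal bins. This interval, too, treats bins as independent. Its bins in both lists, 65.8% of all, averaged 0.88 ± 0.56 and 1.18 ± 0.41.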

How the results depend on the processing

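The share of members in both lists stayed at 99.2 to 99.4% under 12 alternatives, and the last 10% of the chromosomes had a higher percentage of members than the first 10% under 11 of 11, by 5.26 to 80.1 times. The highest ratio rests on very few bins, with 0.0292% of the first 10% as members. The number of members and of runs was 15954 and 9159 at a threshold lower by 0.25 (lower threshold), 1630 and 1373 at one higher by 0.25 (higher threshold), 2301 and 1546 with 20 kb bins, and 11927 and 7253 with summed reads. Fragments of 200 to 1000 bp gave 8914 members, and skips of 5 bins gave 1875 runs. Lower counts with longer bins and fewer runs with skips follow from their construction. So do more members at the lower threshold and fewer at the higher. The same holds, among the values below, for the higher percentages with skips and with zones of 5 Mb and for the longer distances with merged LADs. For the other changes the cause was not tested. The percentage of members in runs of 2 or more was 62.1% at the lower threshold, 28.3% at the higher, 41.3% with at least 20 fragments, 50.8% with 20 kb bins, 49.2% with medians, 43.7% with the most frequent value subtracted, 58.6% with summed reads, and 62.1% and 83.4% with skips of 1 and 5 bins. The median distance to an edge of the list labelled Dam-Lamin A was 433 kb at the higher threshold, 484 kb with medians, 452 kb with weighted means, 506 kb with fragments of 200 to 1000 bp, 451 kb with the most frequent value subtracted, 534 kb with summed reads and 558 kb with LADs merged across gaps under 25 kb. For the list labelled Dam-Lap2b it was 433 kb with fragments of 200 to 1000 bp, 462 kb with summed reads and 505 kb with merged LADs. The percentage in the first or last 3 Mb was 4.81% at the lower threshold, 8.22% at the higher, 7.17% with 20 kb bins, 5.56% with medians, 4.57% with fragments of 200 to 1000 bp, 4.30% with summed reads and 11.1% with zones of 5 Mb. Summed reads kept 82.6% of the members, medians 84.2% and weighted means 58.4%. No paired analysis was possible because each group had 1 sample and the labels give no replicate numbers. A median of 7 reference reads per fragment, over all fragments, limits single fragments, and about 25 fragments limit a bin. In members the recovered reference reads had a median of 0 in fragments under 100 bp (23.5% of their fragments). It was 2 in those of 100 to 300 bp (31.2%). The other bins in both lists had 0 and 3. The log2 values of such fragments depend strongly on the 1 read added, and the part of this in the choice of members was not tested.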
